A study of Rattus norvegicus with 10 samples.

Results

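The genes followed here are 36 genes of DNA repair, which belong to 5 routes by which cells mend damaged DNA: direct reversal (1 gene), base excision repair (13 genes), nucleotide excision repair (9 genes), mismatch repair (3 genes) and strand-break repair (10 genes). They were chosen by name, with earlier results of these data known, and the rule for choosing them uses no measured value. Of the 36, 29 had a named probe among the 13832 genes named on the array, with 37 probes in all, and 22 were measured well enough to be tested among 6855 genes.

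Alkylating agents such as diethylnitrosamine, which the liver activates, attach alkyl groups to DNA bases. A group on the oxygen of guanine is taken off in a single step by the alkyltransferase Mgmt, which is used up in the act, while most alkylated, oxidised or deaminated bases are cut out by base excision repair, in which a glycosylase removes the base, the endonuclease Apex1 opens the strand, and a polymerase and a ligase close it. Bulky adducts are handled by nucleotide excision repair, mispaired bases by mismatch repair, and broken strands by end joining or recombination.

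The rats, 10 male Wistar animals, each gave 150 ng of liver RNA to 1 Agilent 4x44K array in 1 colour. The 5 control rats received vehicle. The 5 DEN/TAA rats received diethylnitrosamine (DEN) once, intraperitoneally, at 200 mg/kg at 6 weeks of age, and from 2 weeks later thioacetamide (TAA), a liver toxin that scars the tissue, at 200 mg/kg in 2 injections per week, in cycles of 3 weeks with and 1 week without. The labels give 23 weeks both as the length of the treatment and as the age of every rat, so the age at sampling is not settled, and the interval between the single dose of DEN and sampling is not given. DEN and TAA were given together in every treated rat, so their effects cannot be told apart. In whole liver, fewer cells of a type and less RNA per cell cannot be told apart either.

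Control arrays were dimmer than DEN/TAA arrays: 25.5% ± 6.21 of spots (SD, n = 5; 16.5% to 32.9%) were well above background in control and 40.6% ± 4.42 (SD, n = 5; 36.1% to 46.6%) in DEN/TAA (p = 0.00794 by a two-sided exact permutation test, which can give no smaller value). The 5 brightest probes of spike-in RNA, which is added and is not from the liver, were dimmer in control as well. Their log2 level ran from 12.42 to 13.46 over control arrays and from 13.60 to 14.07 over DEN/TAA arrays, without overlap. The 75th percentile of the detected probes ran from 9.58 to 11.20 and from 11.89 to 12.69. The cause of the difference in brightness was not tested. Levels below are log2 signals of a rat relative to the 75th percentile of the detected probes on its array. On this scale 0 is a fairly bright gene, negative values are dimmer ones, and levels of different genes are not compared. Differences are DEN/TAA minus control, and a gene was called higher or lower when its p-value from limma, adjusted over all 6855 genes, was under 0.05.

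Of the 22 members tested, 8 were higher in DEN/TAA liver and 0 were lower. The higher genes were Mgmt, the base excision genes Apex1, Ogg1, Lig1 and Fen1, the nucleotide excision genes Rad23b and Ercc3, and the mismatch gene Pms2. The share of tested members called higher, 36.4%, lay near that of all genes tested, of which 39.2% were higher and 16.3% lower, or 55.5% in either direction. At an unadjusted p under 0.05 limma gave 10 members higher and 0 lower, and the exact permutation test gave 11 and 1. After adjustment the exact test gave 8 and 0, with Parp1 in place of Mgmt. The median difference of the tested members was 0.45, against 0.33 for all genes tested, and 14 members lay above that median and 8 below it. A rise of at least 2-fold was seen in 2 members, Apex1 and Lig1, against 21.2% of all genes tested. The groups did not overlap in 6 members, all but 1 of them among the 8 higher genes, or 27.3%, against 39.5% of all genes tested.

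Whether a gene entered the test depended on its brightness. All 22 tested members were well above background on every DEN/TAA array, which was enough to pass the filter of 5 arrays out of 10. In 10 of the 22, at least 1 control array was not well above background, so these passed only through the DEN/TAA arrays. Among the 12 members above background on all 10 arrays, 6 were higher and 0 lower, where 30.4% of such genes in the whole table were higher and 25.2% lower. The median difference of these 12 members was 0.49, against 0.10 for all such genes.

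**Figure D1:**
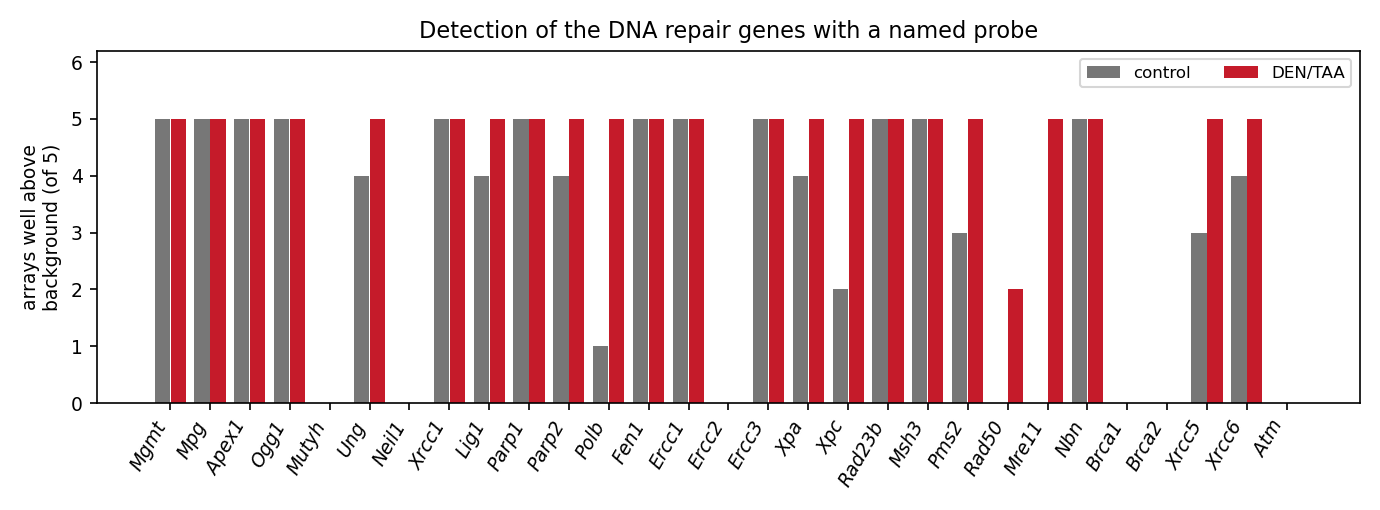
Number of arrays (of 5 per group) on which each of the 29 members with a named probe was well above background, in control (grey bars) and DEN/TAA (red bars), taken from the probe detected most often. Polb was detected on 1 control array and 5 DEN/TAA arrays, and Mre11 on 0 and 5, while Mutyh, Neil1, Ercc2, Brca1, Brca2 and Atm were detected on none.

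Direct reversal is represented by Mgmt, the alkyltransferase that clears alkyl groups from guanine. In control rats 1 to 5 its log2 signal was -0.86, -1.09, -0.15, -0.43 and -0.98, and in DEN/TAA rats 1 to 5 it was 0.13, -0.36, 0.19, 0.17 and -0.23. Control rats 3 and 4 were the highest of their group, and the groups overlapped, since control rat 3 lay above DEN/TAA rats 2 and 5. The means were -0.70 ± 0.40 and -0.02 ± 0.25 (SD, n = 5 each), a difference of 0.68 (SE 0.21, 95% interval 0.23 to 1.14), or 1.61-fold, with a limma adjusted p of 0.0159. Mgmt remained called when any single rat was left out (adjusted p at most 0.0410), and the call ended without the 2 dimmest control arrays, those of rats 1 and 5 (0.54, adjusted p = 0.0800), with the exact permutation test (adjusted p = 0.0585) and with scaling to the percentile of all probes (0.38, adjusted p = 0.175).

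Apex1, the endonuclease that cuts the strand where a base has been removed, showed the largest difference among the members. Its log2 signal was -1.03, -0.83, -0.41, -0.68 and -1.12 in control rats 1 to 5 and 0.90, 0.78, 0.87, 1.04 and 1.09 in DEN/TAA rats 1 to 5. Every DEN/TAA rat lay above every control rat by more than 1 log2 unit. The means, -0.81 ± 0.28 and 0.93 ± 0.12 (SD, n = 5 each), differed by 1.75 (SE 0.16, 95% interval 1.39 to 2.10), or 3.36-fold (limma adjusted p = 6.25e-06). Apex1 was called higher under each of 6 scalings (the percentile over detected or over all probes, quantile normalisation, normexp background correction, spike-in RNA and the authors' deposited table), with differences from 1.44 to 2.41, and it lay 1.42 above the median difference of all genes.

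Ogg1, the glycosylase that removes oxidised guanine, was the other member called higher under all 6 scalings. Control rats 1 to 5 gave -3.43, -3.18, -2.88, -2.72 and -2.87, and DEN/TAA rats 1 to 5 gave -2.08, -1.83, -1.99, -2.06 and -2.30. The groups did not overlap, and control rats 1 and 2 were the lowest of all. The means of -3.02 ± 0.28 and -2.05 ± 0.17 (SD, n = 5 each) differed by 0.97 (SE 0.17, 95% interval 0.60 to 1.33), or 1.95-fold (limma adjusted p = 5.21e-04), with 0.55 to 1.63 over the scalings.

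The sequences before the start sites of Apex1, Ogg1 and Mgmt are shown because these are the members called under every scaling and the gene that acts directly on alkylated guanine. Each runs 5′ to 3′ on the gene's strand from 250 bases before to 50 bases after the start used in the RefSeq promoter table (rat assembly GRCr8). Apex1 lies at chr15:26617976-26618275, Ogg1 at chr4:148030336-148030635 and Mgmt at chr1:201140582-201140881, all on the plus strand. Capitals mark matches on either strand to the motifs named after them.
Apex1: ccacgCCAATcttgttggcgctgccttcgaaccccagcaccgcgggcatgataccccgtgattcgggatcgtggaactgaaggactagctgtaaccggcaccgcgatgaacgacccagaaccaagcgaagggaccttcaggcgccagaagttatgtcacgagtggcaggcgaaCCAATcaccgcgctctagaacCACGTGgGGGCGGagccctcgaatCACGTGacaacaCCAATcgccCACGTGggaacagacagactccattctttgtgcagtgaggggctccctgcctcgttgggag
Ogg1: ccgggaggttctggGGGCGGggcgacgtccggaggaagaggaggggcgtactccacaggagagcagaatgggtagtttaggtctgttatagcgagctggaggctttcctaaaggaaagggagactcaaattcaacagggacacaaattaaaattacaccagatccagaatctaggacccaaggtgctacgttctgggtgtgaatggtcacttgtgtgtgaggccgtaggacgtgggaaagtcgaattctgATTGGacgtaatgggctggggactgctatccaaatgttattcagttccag
Mgmt: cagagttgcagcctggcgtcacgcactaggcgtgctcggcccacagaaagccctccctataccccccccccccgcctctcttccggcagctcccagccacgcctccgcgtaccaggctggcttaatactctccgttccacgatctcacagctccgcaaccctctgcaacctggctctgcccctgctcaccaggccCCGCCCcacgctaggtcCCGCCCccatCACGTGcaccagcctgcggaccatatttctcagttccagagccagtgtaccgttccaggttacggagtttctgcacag

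The motifs searched, on both strands, were the E-box of USF factors (CACGTG), the GC box (GGGCGG), the CCAAT box (spelled as its name), the TATA box (TATAAA), the cAMP response element TGACGTCA, the antioxidant response core TGACNNNGC and the E2F-type sites TTTGGCGC, TTTCCCGC, TTTGCCGC and TTTCGCGC. In Apex1 the E-box stood 3 times, 56, 32 and 11 bases before the start, beside a GC box 49 bases before it and CCAAT boxes 245, 77 and 20 bases before it. In Mgmt it stood once, 28 bases before the start, with GC boxes at 55 and 38 bases, and Ogg1 held a GC box 236 bases before the start and a CCAAT box on the minus strand at its first base. Of the 31 members in the table, 6 held the E-box (6.65% of 27457 promoters of this length did), 21 held the GC box (34.9%), 11 held the CCAAT box (37.7%), 4 an E2F-type site (2.25%), 2 the antioxidant core (12.2%), and 0 the cAMP element (1.91%) or the TATA box (14.3%). Of the 8 higher members, 6 held the GC box, 4 the CCAAT box, 3 the E-box (Mgmt, Apex1 and Fen1), 1 an E2F-type site (Lig1) and 1 the antioxidant core (Pms2). The members' windows had a median GC content of 61.7% and a median of 23 CpG sites, against 52.3% and 7 for all promoters. The matches describe the letters in these windows, and binding was not measured.

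Lig1, the ligase that seals nicks in long-patch repair and in replication, also rose. Its signal was -3.57, -3.41, -3.84, -3.55 and -3.80 in control rats 1 to 5 and -2.68, -2.33, -2.72, -2.58 and -2.70 in DEN/TAA rats 1 to 5. The groups stood apart, with each rat close to its own group's mean. Those means were -3.63 ± 0.18 and -2.60 ± 0.16 (SD, n = 5 each), and the difference was 1.03 (SE 0.15, 95% interval 0.71 to 1.35), or 2.05-fold (limma adjusted p = 1.21e-04). Lig1 was detected on 4 of 5 control arrays, and its call ended with normexp background correction (0.37, adjusted p = 0.193).

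Fen1, the flap endonuclease of long-patch repair and of replication, rose by a smaller amount. Control rats 1 to 5 read -2.60, -2.53, -1.91, -2.15 and -2.18, and DEN/TAA rats 1 to 5 read -1.81, -1.81, -2.00, -1.62 and -1.40. DEN/TAA rat 3 lay below control rat 3, so the groups overlapped. The difference was 0.55 (SE 0.18, 95% interval 0.16 to 0.93), between means of -2.27 ± 0.29 and -1.73 ± 0.22 (SD, n = 5 each; limma adjusted p = 0.0213). The call ended without control rat 2 (0.48, adjusted p = 0.0516), without the 2 dimmest control arrays (0.47, adjusted p = 0.0647) and in 4 of the 6 scalings, and another probe of Fen1 was above background on no array.

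Both Lig1 and Fen1 also serve replication, so genes of the cell cycle are given beside them. Of 9 tested genes in a list of 20 proliferation genes, 7 were higher and 0 lower by limma, where 39.2% of all genes tested were higher. The exact permutation test called 4 higher after adjustment. The summed linear level of the list was 0.233 to 0.385 in control and 0.563 to 0.737 in DEN/TAA rats. Only 1 of the 9 was above background on all 10 arrays. Aurka, Bub1, Ccnb1 and Mcm3 were undetected on all control arrays, so the control sums rest in part on undetected signals. The part of proliferation in the differences of Lig1 and Fen1 was not tested.

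The other 6 tested base excision genes were not called by limma. Parp1, the poly(ADP-ribose) polymerase that senses strand nicks, differed by 0.33 (SE 0.13, 95% interval 0.04 to 0.62, limma adjusted p = 0.0519). Its groups did not overlap, at -1.27 to -0.91 in control and -0.89 to -0.58 in DEN/TAA rats, but its other probe gave 0.07 with overlap. Leaving out control rat 5 brought Parp1 past the threshold (0.37, adjusted p = 0.0362), as did the exact permutation test (adjusted p = 0.0201). Xrcc1, the scaffold that gathers the repair enzymes at a nick, differed by -0.17 (95% interval -0.50 to 0.16), and Mpg, the glycosylase that removes alkylated purines, by -0.06 (95% interval -0.49 to 0.37), with -0.14 from its other probe. For Mpg and Xrcc1, the intervals left no room for a change of 2-fold in either direction under this scaling.

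A further 3 base excision genes were less precise because of their spread or their dimness. Polb, the polymerase that fills the gap, differed by 0.41 (95% interval -0.15 to 0.98), with 1 of 5 control arrays above background. That array was of control rat 3, and without it, which leaves undetected control signals alone, the difference was 0.60 (adjusted p = 0.0480). With undetected values raised to the lowest detected signal of their array it was 0.11 (adjusted p = 0.799). Parp2, a relative of Parp1, differed by 0.48 (95% interval -0.23 to 1.19), with 0.20 from its other probe and 0.76 (adjusted p = 0.0245) without DEN/TAA rat 5. Ung, the glycosylase that removes uracil, differed by -0.77 (SE 0.56, 95% interval -1.99 to 0.44, limma adjusted p = 0.257). Both groups spread widely (SD 1.17 in control and 0.88 in DEN/TAA, n = 5 each), with DEN/TAA rats from -5.75 to -3.33. The signal of control rat 5, -5.97, was not above background and is only a bound, while the other control rats lay between -3.73 and -3.03. Ung passed the threshold as lower without control rat 5 (-1.29, adjusted p = 0.0168). It also did so with that signal raised to the lowest detected one of its array (-1.22, adjusted p = 0.0165). Raising a control signal can only move the difference down.

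**Figure D2:**
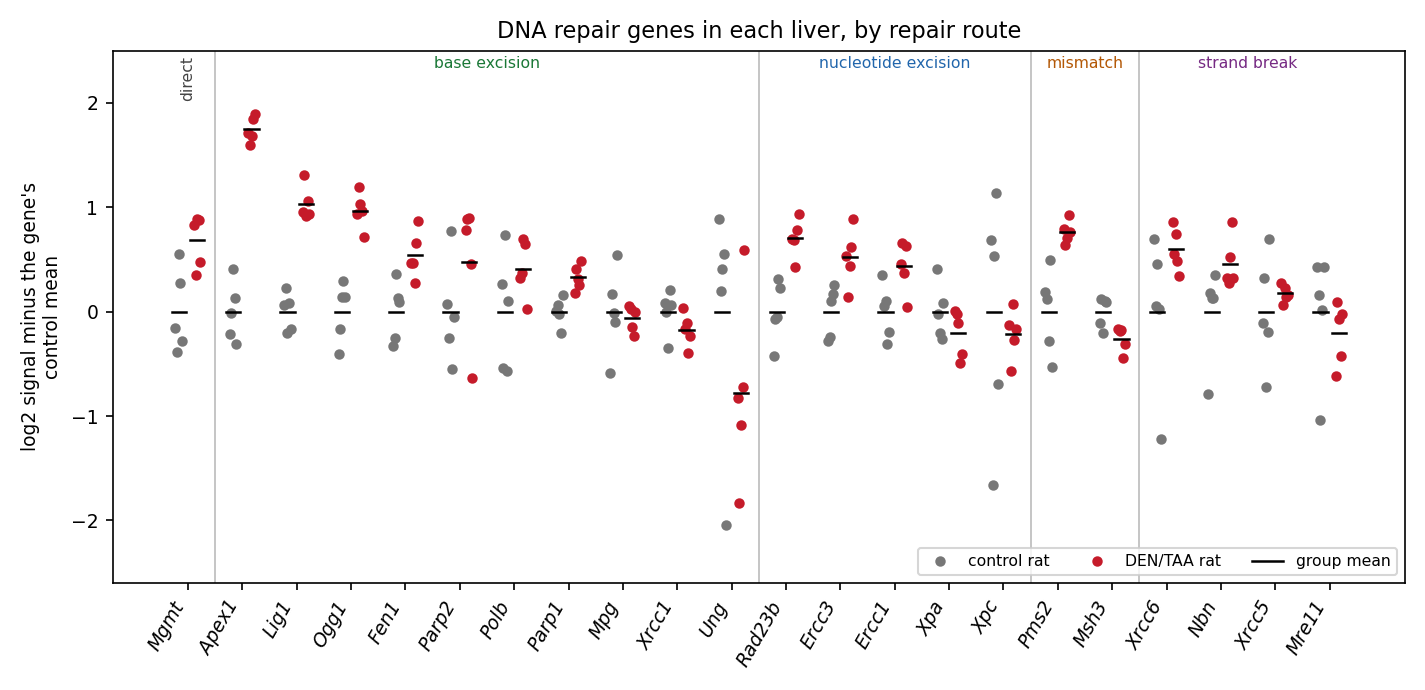
Log2 signal of each of the 22 tested members in each rat, relative to that gene's control mean, with control rats in grey, DEN/TAA rats in red, group means as black bars and grey lines between the repair routes. The 5 DEN/TAA points of Apex1 stand above all control points, and single low control points are seen in Ung, Mre11 and Nbn.

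In nucleotide excision repair, 2 of 5 tested members were higher and 0 lower, with 3 and 0 at an unadjusted p under 0.05. The share called higher, 40.0%, lay near the 39.2% of all genes tested. Rad23b, a partner of the damage sensor Xpc, read -0.67, -0.31, -0.29, 0.07 and -0.01 in control rats 1 to 5 and 0.45, 0.44, 0.19, 0.54 and 0.69 in DEN/TAA rats 1 to 5. All DEN/TAA rats were above all control rats, the nearest being DEN/TAA rat 3 and control rat 4. The difference of means, -0.24 ± 0.29 and 0.46 ± 0.18 (SD, n = 5 each), was 0.71 (SE 0.17, 95% interval 0.33 to 1.08), or 1.63-fold (limma adjusted p = 0.00458), and its other probe gave 0.87. Under the percentile of all probes Rad23b was not called (0.40, adjusted p = 0.119).

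Ercc3, a helicase of transcription factor TFIIH that opens the helix around an adduct, read -1.37, -1.34, -0.99, -0.93 and -0.84 in control rats 1 to 5 and -0.56, -0.95, -0.66, -0.48 and -0.21 in DEN/TAA rats 1 to 5. DEN/TAA rat 2 lay among the control rats, and the remaining DEN/TAA rats lay above them. The means, -1.09 ± 0.25 and -0.57 ± 0.27 (SD, n = 5 each), differed by 0.52 (SE 0.18, 95% interval 0.13 to 0.91; limma adjusted p = 0.0260). The call ended when control rat 1 or 2 or DEN/TAA rat 1, 4 or 5 was left out (0.43 to 0.52, adjusted p from 0.0524 to 0.0618), and in 3 of the 6 scalings.

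Ercc1, a subunit of the nuclease that cuts on the 5′ side of the adduct, was just short of the threshold. Its values were -2.73, -3.03, -2.98, -3.40 and -3.28 in control rats 1 to 5 and -2.63, -2.43, -2.71, -2.45 and -3.04 in DEN/TAA rats 1 to 5. Only DEN/TAA rat 5 lay within the control range. The difference of 0.43 (SE 0.18, 95% interval 0.05 to 0.82) had a limma adjusted p of 0.0541, and it passed without control rat 1 (0.52, adjusted p = 0.0245) or without DEN/TAA rat 5 (0.53, adjusted p = 0.0227).

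Xpa, which verifies the damage, and Xpc, which first senses it, were not called. Xpa read -3.35, -3.79, -3.97, -4.02 and -3.68 in control rats 1 to 5 and -3.76, -3.79, -3.87, -4.26 and -4.17 in DEN/TAA rats 1 to 5. The groups overlapped over most of their range, and the difference was -0.21 (SE 0.17, 95% interval -0.59 to 0.17, limma adjusted p = 0.334), with a call as lower in 3 of the 6 scalings. Xpc differed by -0.21 (95% interval -1.20 to 0.77), with 2 of 5 control arrays above background. The control rats ranged from -7.02 to -4.22 against -5.92 to -5.28 in DEN/TAA rats. With undetected values raised, Xpc stood at -1.02 (limma adjusted p = 0.00856). Raising touched control signals alone and could only move the difference down, so no fall of Xpc is read from it.

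Mismatch repair was measured through Pms2, a subunit of the MutL endonuclease, and Msh3, which recognises loops of unpaired bases. Pms2 read -4.56, -4.63, -5.03, -4.26 and -5.28 in control rats 1 to 5 and -3.96, -4.11, -4.05, -3.83 and -3.99 in DEN/TAA rats 1 to 5. All DEN/TAA rats were above all control rats, but only 3 of 5 control arrays were above background. The means of -4.75 ± 0.40 and -3.99 ± 0.11 (SD, n = 5 each) differed by 0.76 (SE 0.19, 95% interval 0.34 to 1.19), or 1.70-fold (limma adjusted p = 0.00565). With the undetected control values raised to the lowest detected signal the difference was 0.46 (adjusted p = 0.102), with normexp it was -0.48 (adjusted p = 0.130), and another probe of Pms2 was above background on no array.

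Msh3 was above background in every rat. Its values were -2.97, -2.73, -3.06, -2.75 and -2.76 in control rats 1 to 5 and -3.02, -3.04, -3.03, -3.29 and -3.17 in DEN/TAA rats 1 to 5. The groups overlapped through control rat 3 alone. The difference was -0.26 (SE 0.13, 95% interval -0.55 to 0.04, limma adjusted p = 0.125). The exact permutation test gave p = 0.0317 unadjusted and 0.0585 adjusted. Msh3 was called lower in 4 of the 6 scalings (-0.60 to -0.34). Its sign turned only under spike-in scaling, where it stood at 0.40 and was not called (limma adjusted p = 0.138).

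In strand-break repair 0 of 4 tested members were called in either direction by limma, also at an unadjusted p under 0.05, while the exact permutation test gave 1 higher at that unadjusted level. Among all genes tested, limma called 55.5% in either direction. Nbn, the subunit that links the Mre11 nuclease complex to damage signalling, read -3.59, -2.62, -2.67, -2.67 and -2.45 in control rats 1 to 5 and -2.48, -2.53, -2.28, -1.94 and -2.48 in DEN/TAA rats 1 to 5. Control rat 1 lay well below all others, and control rat 5 lay within the DEN/TAA range. The difference was 0.46 (SE 0.22, 95% interval -0.02 to 0.94, limma adjusted p = 0.0976), and 0.26 (adjusted p = 0.182) without control rat 1.

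Xrcc6 and Xrcc5 encode the subunits of Ku, which holds broken ends for joining. Xrcc6 read -3.93, -4.57, -4.17, -4.60 and -5.84 in control rats 1 to 5 and -3.76, -4.07, -3.88, -4.13 and -4.28 in DEN/TAA rats 1 to 5, a difference of 0.60 (SE 0.31, 95% interval -0.07 to 1.27, limma adjusted p = 0.118). Xrcc5 read -4.62, -4.19, -5.23, -4.71 and -3.82 in control rats 1 to 5 and -4.24, -4.45, -4.28, -4.37 and -4.35 in DEN/TAA rats 1 to 5, a difference of 0.18 (SE 0.23, 95% interval -0.33 to 0.68, limma adjusted p = 0.546). The DEN/TAA rats were close together for both subunits and the control rats spread widely, with Xrcc6 above background on 4 and Xrcc5 on 3 control arrays. The difference of Xrcc6 depended on single control rats. It passed the threshold without control rat 1 (0.77, adjusted p = 0.0496), and was 0.29 (adjusted p = 0.200) without control rat 5, whose signal was not above background, and 0.18 (adjusted p = 0.477) with that signal raised.

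Mre11, the nuclease that trims broken ends, was detected on every DEN/TAA array but not on control arrays, so only a bound on its control level was available. Its signals were -4.94, -5.20, -6.41, -5.35 and -4.94 in control rats 1 to 5 and -5.98, -5.27, -5.44, -5.79 and -5.39 in DEN/TAA rats 1 to 5. The groups overlapped, the difference was -0.21 (SE 0.28, 95% interval -0.81 to 0.40, limma adjusted p = 0.547), and the DEN/TAA mean did not exceed the bound, so no fold is given.

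**Figure D3:**
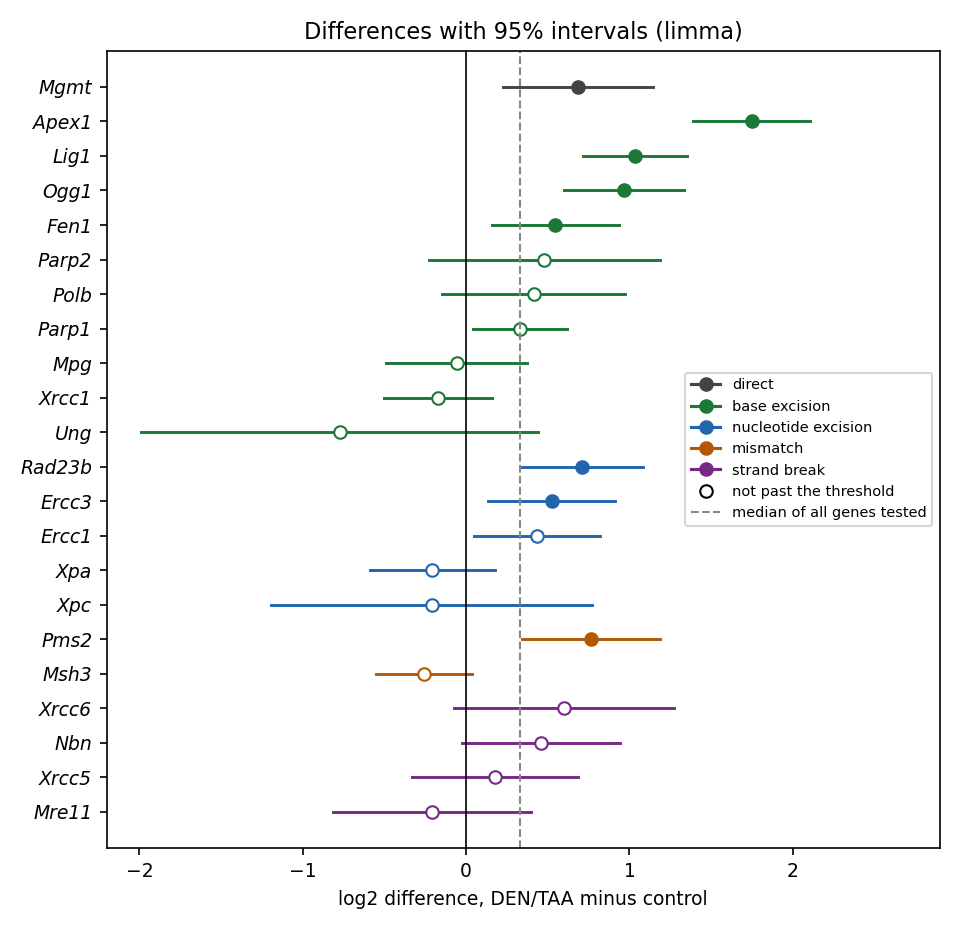
Log2 difference (DEN/TAA minus control) of the 22 tested members with 95% intervals from limma, coloured by repair route, filled where the adjusted p passed the threshold and open where it did not, with 0 as a solid line and the median of all genes tested (0.33) as a dashed line. Apex1 stands highest at 1.75, the strand-break genes are all open symbols, and the interval of Ung is the widest.

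A further 7 members had a probe but did not enter the test. Mutyh, Neil1 and Ercc2, and the recombination and signalling genes Brca1, Brca2 and Atm, were above background on no array, and Rad50, the partner of Mre11, on 2 DEN/TAA arrays only. For these, no level can be stated beyond that the signal was not well above background. For the remaining 7 members, Lig3, Ercc5, Ddb1, Ddb2, Msh6, Rad52 and Prkdc, no probe was named here, and they were not analysed.

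The difference between groups was next viewed within each slide, since the arrays lay on 3 slides that each held both groups. Slide 1 held control rats 1 and 2 and DEN/TAA rats 1 and 2, slide 2 held control rat 3 and DEN/TAA rats 3 and 4, and slide 3 held control rats 4 and 5 and DEN/TAA rat 5. All 8 higher members had a positive difference within each slide: Apex1 between 1.36 and 1.99, Lig1 between 0.97 and 1.19, and Fen1 between 0.11 and 0.76. Mgmt lay between 0.33 and 0.86, Ogg1 between 0.50 and 1.35, Rad23b between 0.66 and 0.94, Ercc3 between 0.42 and 0.67, and Pms2 between 0.56 and 1.09. These are the arrays that gave the calls, so the within-slide values are not a separate replication. With slide as a block 10 members were higher and 0 lower, the additional ones being Ercc1 (0.35, adjusted p = 0.0440) and Parp1 (0.35, adjusted p = 0.0490).

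**Figure D4:**
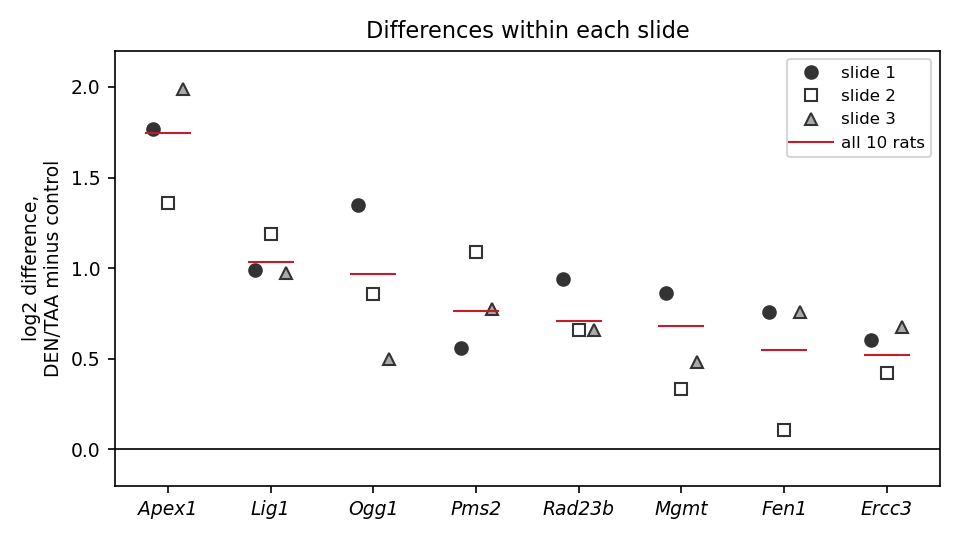
Log2 difference (DEN/TAA minus control) of the 8 higher members within slide 1 (filled circles), slide 2 (open squares) and slide 3 (grey triangles), with the value over all 10 rats as a red bar. Every point lies above 0, from 0.11 for Fen1 to 1.99 for Apex1.

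The number of members called depended on how arrays were scaled against each other, as it did for all genes. With the percentile over detected probes, 2689 genes were higher and 1116 lower, so that 70.7% of calls were higher. With the percentile over all probes this share was 50.3% and the members gave 3 higher (Apex1, Lig1 and Ogg1) and 3 lower (Msh3, Xpa and Xrcc1). With quantile normalisation it was 58.9%, with 5 members higher and 2 lower, and with the values of the authors' deposited table it was 60.8%, with 6 higher and 1 lower. Normexp background correction gave 31.2%, with 4 members higher (Apex1, Mgmt, Ogg1 and Rad23b) and 5 lower (Mre11, Msh3, Ung, Xpa and Xpc), and spike-in scaling gave 91.8%, with 16 higher and 0 lower. The median difference of all genes ran from -0.28 with normexp to 0.99 with spike-in scaling, and that of the members from -0.22 to 1.11. Of the 8 higher members, Apex1 and Ogg1 were called in all 6 scalings, Mgmt, Lig1 and Rad23b in 5, Ercc3 in 3, and Fen1 and Pms2 in 2.

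**Figure D5:**
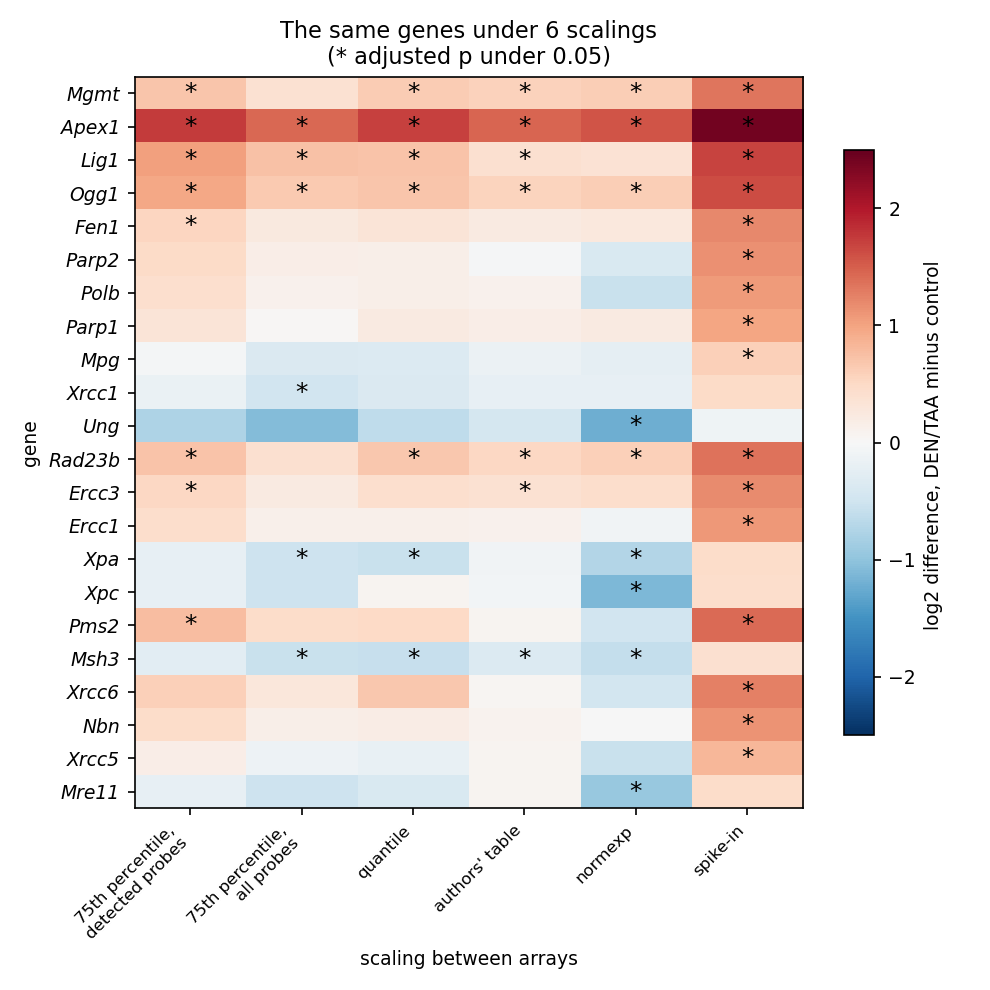
Log2 difference (DEN/TAA minus control; red higher, blue lower) of the 22 tested members under 6 ways of scaling or correcting the arrays, with an asterisk where the limma adjusted p was under 0.05. Apex1 and Ogg1 carry an asterisk in every column, while Msh3 is blue in all columns except spike-in scaling, where it stands at 0.40.

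Other genes of the repair routes were read from a list of 104, of which 76 had a named probe and 40 were tested. Of these, 16 were higher and 1 lower (40.0% and 2.5%), again near the 39.2% higher among all genes tested, and the median difference was 0.35. Among the 18 above background on all 10 arrays, 5 were higher and 1 lower. That is 27.8% higher, against 30.4% of all such genes. Among nucleotide excision genes 6 of 14 tested (42.9%) were higher and 0 lower. They included Cul4b, a cullin of the ubiquitin ligases that act with the Ddb proteins (1.07, SE 0.14, limma adjusted p = 6.74e-05), Rbx1, the ring subunit of these ligases (0.79, SE 0.13, limma adjusted p = 4.52e-04), and Mnat1, a subunit of the kinase part of TFIIH (0.87, SE 0.17, limma adjusted p = 9.78e-04). Of these, Rbx1 was called in all 6 scalings, and Cul4b was above background on 4 of 5 control arrays.

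Of the other base excision genes, 3 of 8 tested (37.5%, against 39.2% of all genes tested) were higher and 0 lower: Tdp1, which frees trapped topoisomerase from DNA ends (1.01, SE 0.24, adjusted p = 0.00365), Aplf, an end-joining scaffold (1.19, SE 0.37, adjusted p = 0.0168), and Nthl1, a glycosylase for oxidised pyrimidines (0.46, SE 0.17, adjusted p = 0.0373). Tdp1 was above background on 1 control array and Aplf on none, and with undetected values raised to the lowest detected signal they stood at -0.18 and -0.10, so no fold is given for Aplf. With normexp Aplf was called lower (-0.85, limma adjusted p = 0.0296). Nthl1 lost its call when control rat 2 or 4 or DEN/TAA rat 1, 2 or 3 was left out, with adjusted p up to 0.0829. Its value was -0.19 with normexp and -0.06 in the authors' deposited table.

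Of the other strand-break genes, 4 of 5 tested were higher and 0 lower, where 39.2% of all genes tested were higher. Of these 5, 0 were above background on all 10 arrays, and the DEN/TAA arrays alone carried them past the filter. The count thus rests on control signals that were mostly undetected. Rbbp8, which starts the trimming of broken ends (1.36, SE 0.17, adjusted p = 5.07e-05), was above background on 1 control array and gave 0.85 with the others raised to the lowest detected signal. Lig4, the ligase of end joining (0.63, SE 0.20, adjusted p = 0.0214), was detected on no control array, and so raised it stood at -0.69, so no fold is given. Lig4 was not called without DEN/TAA rat 2 or 3, with adjusted p up to 0.0558.

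Among genes of damage signalling there were calls in both directions, with 2 higher and 1 lower of 5 tested. These shares, 40.0% and 20.0%, stood beside 39.2% and 16.3% of all genes tested. Rnf8, a ubiquitin ligase recruited to breaks, was lower by 1.19 on the log2 scale (difference -1.19, SE 0.22, limma adjusted p = 8.77e-04), without overlap, and under spike-in scaling it was not called (-0.53, adjusted p = 0.126). Mdc1, the adaptor that recruits Rnf8, was higher (0.81, SE 0.25, adjusted p = 0.0164) and was above background on 4 control arrays. Rad17, the clamp loader of checkpoint signalling (1.11, SE 0.40, adjusted p = 0.0355), was above background on 1 control array and stood at -0.05 with the others raised. Its call ended without any one of control rats 1 to 3 or of the DEN/TAA rats, and with normexp it was called lower (-0.80, limma adjusted p = 0.0414).

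Of the nucleotide pool genes, Dut, which removes dUTP, was higher (0.69, SE 0.16, limma adjusted p = 0.00387), 1 of 2 tested. No call in either direction came from the 2 tested genes of direct reversal, the 1 of mismatch repair or the 3 of crosslink repair and bypass. At an unadjusted p under 0.05, limma gave 1 higher gene among those of direct reversal and 0 in the other groups, and 0 lower in all 3. The exact permutation test gave the same counts unadjusted, and after adjustment it called 1 of them, Alkbh3, a demethylase of alkylated bases (0.34, SE 0.15, adjusted p = 0.0705 by limma and 0.0338 by the exact test), higher. Alkbh2, the other gene of direct reversal, differed by -0.38 (SE 0.20, limma adjusted p = 0.124). It ran from -0.68 to 0.28 over the 6 scalings and was called lower in 4 of them.

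Cell type markers moved with the treatment, beside every difference given above. Among all genes tested, 39.2% were higher and 16.3% lower. Of 11 tested hepatocyte markers (of 11 listed) 9 were lower and 0 higher, and their summed linear level was 341 to 554 in control and 178 to 223 in DEN/TAA rats. All 4 tested biliary markers (of 7) were higher, at 0.162 to 0.230 against 1.22 to 1.68, with Krt19 and Spp1 above background on no control array. Of 10 macrophage markers (of 10) 8 were higher and 1 lower, at 3.01 to 5.41 against 8.34 to 11.4, with Gpnmb and Trem2 above background on no control array. Of 8 stellate cell markers (of 9) 6 were higher and 0 lower, at 0.593 to 0.765 against 2.71 to 3.81. Of 3 lymphocyte markers (of 12) 2 were higher and 0 lower, at 0.0429 to 0.111 against 0.140 to 0.178, with Cd3g and Zap70 above background on no control array. Of these 3, 0 were above background on all 10 arrays. Their control sum rests in part on undetected signals, which are bounds, as do the biliary and macrophage control sums. Of 3 endothelial markers (of 6) 2 were higher and 0 lower, and their sums overlapped, at 1.00 to 2.11 against 1.24 to 1.73. The part of these cells in the differences of the repair genes was not tested.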

How the data were processed

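Liver RNA of 5 control and 5 DEN/TAA rats was hybridised to 1 array each, and the number of arrays limits the precision. Spot intensity came from the deposited scanner files, where background had been subtracted on each array per the file headers. Those headers name Agilent Feature Extraction 11.5.1.1, and version 15.5 stands in the submitters' processing notes. The authors also deposited log2 values, with column medians of 8.592 to 8.594 and the rank order of each array's raw median signal, so scale and direction were known. Their normalisation was not given in the sources used here.

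Control spots and spots flagged as outliers on the array were left out, repeat spots of a probe were averaged, and from every array the 75th percentile of its log2 processed signal over the 6229 probes well above background on all arrays was taken away. No spot was saturated. Probes well above background on at least 5 of 10 arrays were kept. Probes were named by matching the design's accession, without version, to NCBI RefSeq genes of GRCr8. Of 41012 probes 17502 had 1 symbol, 0 had several and 23510 had none here. For genes with several passing probes the brightest on average was used. No coordinates of probes are given, since the array design used another build.

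Groups were compared with limma 3.58.1 in R 4.3.3 (two-sided, Benjamini-Hochberg adjustment over 6855 genes, threshold 0.05, no covariates), tested on simulated data first. The limma p-values set the difference between the groups against the spread between these rats. In limma the spread of each gene is drawn towards that of all genes. Where a gene was undetected on control arrays, raising undetected values to the lowest detected signal of the array was an alternative. For a gene detected on every DEN/TAA array, this can only lower the difference. Signals of an undetected gene are bounds. Values per rat are given for Mgmt and for up to 4 members of each route with the smallest adjusted p, and other repair genes are named when among the 3 smallest adjusted p of their list, past the threshold, of which 1 is not reported here. Alkbh2, Alkbh3 and the rats named beside Ung, Xpc and Parp1 were chosen after their values were seen. Members and lists were chosen with earlier results of these data known. The alternatives were other scalings, background correction, filters, probe rules, blocks, priors, array weights, an exact permutation test and leaving out rats.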

Additional observations from a re-analysis of the deposited data

Results flagged for a closer look

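Within the 44 sets of 5 rats formed by the 22 tested members and both groups, 3 held a rat far from the others by Dixon's test, whose critical ratio of gap to range is 0.71. Chance gives this in about 5% of sets. All 3 were control rats. For Ung, the uracil glycosylase, control rat 5 lay at -5.97 on the log2 scale, with the nearest control rat at -3.73 and the farthest at -3.03 (ratio 0.764), and that signal was not above background and so only a bound. For Mre11, the nuclease that trims broken ends, control rat 3 lay at -6.41, with the nearest at -5.35 and the farthest at -4.94 (ratio 0.720), and no control array was above background. For Nbn, its partner in the same complex, control rat 1 lay at -3.59, with the nearest at -2.67 and the farthest at -2.45 (ratio 0.805). None of these genes was called, and Ung passed as lower without that control rat (-1.29, adjusted p = 0.0168).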

How the results depend on the processing

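The 22 tested members gave 8 higher and 0 lower genes. With the percentile over all probes they gave 3 and 3, with quantile normalisation 5 and 2, with normexp 4 and 5, with spike-in scaling 16 and 0, and with the authors' values 6 and 1. Without a filter 3 were lower (Brca1, Ercc2 and Neil1, above background on no array), with undetected values raised 2 (Ung at -1.22 and Xpc at -1.02), with array weights 1 and without the 2 dimmest control arrays 1 (Ung in both). Raising touched only control signals of the tested members, so it could only move their differences down. Leaving out each rat gave 6 to 9 higher and 0 to 1 lower, that gene being Ung without control rat 5. The 40 other repair genes gave 16 higher and 1 lower. The pairs were 7 and 2 over all probes, 9 and 2 with quantile normalisation, 1 and 8 with normexp, 30 and 0 with spike-in scaling, and 10 and 2 in the authors' table. Without a filter 14 were lower, with the filter on all arrays 6 were higher, with undetected values raised 9 were higher and 2 lower, with array weights 2 were lower, and leaving out each rat gave 11 to 16 higher and 1 to 2 lower, the 2 without control rat 4. For all genes, higher calls numbered 1617 over all probes, 883 with normexp, 4443 with spike-in scaling, 1154 of the fewer genes passing the filter on all arrays and 5065 with each probe on its own. Lower calls numbered 1948 with normexp, 396 with spike-in scaling, 5801 without a filter and 1955 with each probe. Leaving out each rat gave 2344 to 2690 higher and 988 to 1143 lower, and a difference in the share of spots above background of 12.7 to 16.9 percentage points.

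Signs turned for called genes with normexp: Pms2 (-0.48), Nthl1 (-0.19), Aplf (-0.85), Tdp1 (-0.44), Ercc8 (-0.49), Rbbp8 (-0.056), Lig4 (-0.68), Dclre1c (-0.66) and Rad17 (-0.80), and Polh, not called before, stood at -0.86. With normexp Aplf, Rad17 and Polh were called lower (limma adjusted p = 0.0296, 0.0414 and 0.0398), and the others named were not called. Spike-in scaling put Mpg at 0.60. The authors' table put Nthl1 at -0.063 and Aplf at -0.0040. Raising undetected values touched control signals alone in the genes named next, and so could only lower their differences. It put Aplf at -0.098, Tdp1 at -0.18, Ercc8 at -0.14, Lig4 at -0.69, Dclre1c at -0.19 and Rad17 at -0.049. The cause was not tested. Most of these genes were undetected on some control arrays, which limits what dim genes can show.

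The replicate numbers were shared by both groups, and the deviations of same-numbered rats correlated at 0.0862, 0.100, 0.205, -0.218 and 0.112. Same-numbered rats 1, 2, 3 and 5 also shared a slide, and those numbered 4 did not. The correlations therefore cannot decide whether the numbers mark pairs. No pairing was stated, and the main fit used none. With the replicate block 2685 genes were higher and 1121 lower, 8 members higher and 0 lower, and 16 other repair genes higher and 1 lower. Of the 5 control rats, those numbered 2, 3 and 5 correlated best with the DEN/TAA rat of their own number, which lay on the same slide. Control rats 1 and 4 correlated best with DEN/TAA rats 2 and 5, which also lay on the slide of those control rats.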
